A study of Homo sapiens with 6 samples.

Results

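Amino acids cross cell membranes on carrier proteins of the solute carrier (SLC) families, and the transcripts of 6 of these families were compared here between KYSE450 and KEAP1null-KYSE450 cells. Genes were taken by their symbol, as SLC1, SLC6, SLC7, SLC36, SLC38 and SLC43 followed by A and a number, with SLC7A11 left out. This gave 56 genes among the 58884 rows of the deposited matrix, 12 of SLC7, 7 of SLC1, 11 of SLC38, 3 of SLC43, 4 of SLC36 and 19 of SLC6. The symbol rule also takes carriers of related molecules, such as creatine, taurine and the monoamines in SLC6.

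KYSE450 is a human esophageal squamous cell carcinoma line with wild-type NRF2, and no drug beyond the antibiotics of the medium was added to the cells sequenced. KEAP1null-KYSE450 is a single monoclonal line derived from it with CRISPR-Cas9 and a guide against KEAP1, so that loss of KEAP1 and other differences of this clone cannot be told apart. Both lines were grown in RPMI1640 medium with 10% fetal bovine serum and the antibiotics penicillin and streptomycin. Poly(A) RNA was sequenced in 3 libraries of each line, and the deposited normalized counts summed to between 54829313 and 57380170 per library. Nothing in the labels says that the 3 libraries of a line came from separate cultures, so p-values measure only the spread between these samples, which may be technical.

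As background, these carriers fall into a few working types. Exchangers of the SLC7 family swap an amino acid inside the cell for another outside, and several of them are light chains that reach the plasma membrane only when bound to a heavy chain, SLC3A2 (4F2hc) or SLC3A1 (rBAT). Carriers of the SLC1, SLC6 and SLC38 families use the sodium gradient to load cells with glutamine, glutamate and small neutral amino acids, whereas SLC36 carriers use protons, often at the lysosome, and SLC43 carriers let large neutral amino acids pass without coupling. SLC7A5 and SLC1A5 are known for high expression in squamous carcinomas, where they bring in leucine and glutamine.

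The labels were checked first. KEAP1 had 5760, 5226 and 5146 normalized counts in KYSE450 and 5737, 4906 and 5317 in KEAP1null-KYSE450, with overlapping values, and counts per gene do not show an edit. NFE2L2, the gene of NRF2, had 11199, 11215 and 10616 against 8072, 7790 and 7980 normalized counts, lower in all 3 KEAP1null-KYSE450 libraries (log2 fold change -0.47, limma adjusted p = 0.00063; 0.056 in edgeR, between 5.3e-05 and 0.056 over 16 other settings). SLC7A11, the cystine carrier that the gene rule leaves out and a known NRF2 target, had 2452, 2141 and 2440 against 16496, 13135 and 12491 normalized counts. All 10 squamous markers (KRT5, KRT14, KRT6A, KRT17, TP63, SOX2, KRT13, KRT4, PAX9 and DSG3) and all 4 epithelial markers (EPCAM, CDH1, KRT8 and KRT18) lay above the floor of 3 reads in every library. At the adjusted p alone, KRT8 and KRT18 were higher in KEAP1null-KYSE450 (log2 fold changes 0.81 and 0.71) and CDH1 was lower (-0.82). EPCAM did not pass it. Of the 10 squamous markers, 6 were called between the lines at both thresholds, against 18.2% of all tested genes. KRT4 and KRT5 were higher in KEAP1null-KYSE450 (log2 fold changes 5.17 and 1.46), and KRT14, KRT17, KRT6A and KRT13 lower (-6.09, -4.85, -4.70 and -1.40). KRT5 lay between 0.87 and 1.60 over 16 other settings, so its call was not kept in all. At the adjusted p alone, TP63 and SOX2 were lower (-0.60 and -0.997) and PAX9 and DSG3 higher (0.61 and 0.41). Of all tested genes, 49.8% passed the adjusted p. TP63 and DSG3 did not pass it under every other setting. Of the endothelial markers, PECAM1 was at 0 in all 6 libraries, VWF lay between 35.4 and 67.6 normalized counts, and CDH5 had 10.7, 20.2 and 28.9 against 1.85, 3.06 and 1.01 (log2 fold change -2.77). Over 15 other settings CDH5 lay between -3.54 and -1.28 and did not pass the adjusted p in all of them (up to 0.069). Leukocyte markers did not exceed 10.2, reached by LYZ. Of the fibroblast markers, COL1A1 had 839, 657 and 607 against 333, 401 and 431 normalized counts. It was lower in KEAP1null-KYSE450 without overlap (log2 fold change -0.85, limma adjusted p = 0.00074). COL1A2 and DCN stayed at or under the floor throughout. LUM had 6.42, 14.2 and 14.0 in KYSE450 and 0 in all KEAP1null-KYSE450 libraries, and COL3A1 and PDGFRB reached 8.56 and 12.9. Neuron markers were partly present in this carcinoma line, with SYT1 between 322 and 496 and GAD1 between 266 and 475 normalized counts, while RBFOX3 and SLC17A7 did not exceed 6.05 and 4.28. SNAP25 had 47.1, 28.3 and 29.8 against 147, 169 and 151 normalized counts, the only neuron marker called between the lines with all 6 libraries (log2 fold change 2.15, limma adjusted p = 3.4e-05).

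Before the results, 1 feature of the libraries needs stating. In both lines the library in the first column was high for many of these genes. It was the highest of the 3 libraries in both lines for 16 of the 25 transporter genes tested (64.0%), against 4521 of all 16701 tested genes (27.1%). Over all genes this moved with transcript length: of genes split into 3 groups of about equal size by exon length, 11.1% of the short, 29.1% of the middle and 41.2% of the long genes peaked in the first library of both lines. The median exon length was 6941 bases for the tested transporters and 4702.5 bases for all tested genes with an annotation. What sets these libraries apart was not tested. The columns carry no replicate number, so the libraries of the lines were not paired, and a fit with both first libraries left out, a choice made after looking at the data, is given below beside the fit of all libraries.

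**Figure D1:**
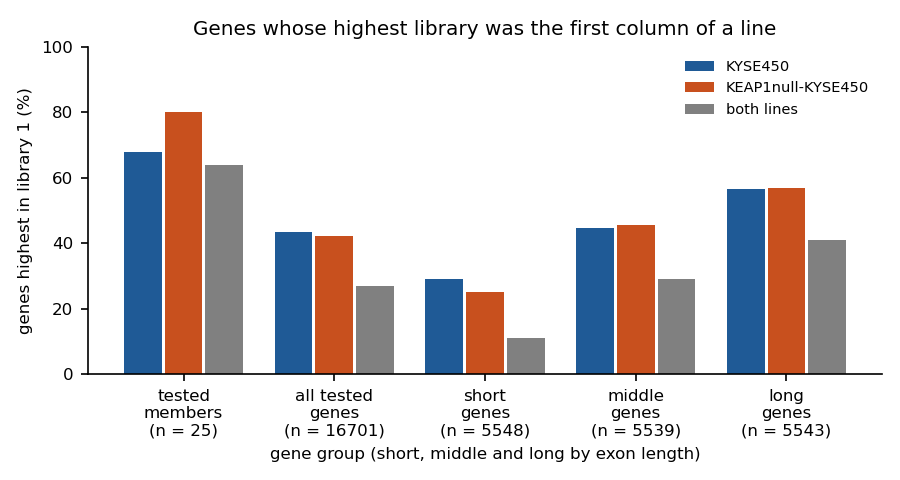
Percent of genes (y axis) whose highest value within a line lay in the library of its first column, for KYSE450, for KEAP1null-KYSE450 and for both lines at once; bars show the 25 tested transporters, all 16701 tested genes, and these genes split by exon length. The grey bar stands at 64.0% for the transporters and at 27.1% for all genes, and rises from 11.1% for short to 41.2% for long genes.

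Of the 56 genes, 25 reached a mean of at least 10 normalized counts over the 6 libraries and were tested, and 22 of these reached a mean of 100. Among the other 31, 15 were at 0 in every library, a further 7 stayed at or under the floor in every library, and 9 rose above it in some library but to no more than 20.5. The carriers at or under the floor in every library include the neuronal dopamine and glycine carriers SLC6A3 and SLC6A5, and the kidney and gut carriers SLC6A18, SLC6A19 and SLC36A2. Together with them stood SLC6A7, SLC6A11, SLC6A12, SLC6A13, SLC1A6, SLC1A7, SLC7A3, SLC7A4, SLC7A10, SLC7A13, SLC7A14, SLC36A3, SLC38A3, SLC38A8, SLC38A11 and SLC43A3. SLC43A3, which carries purine bases, shares 1349 exonic bases (29.9%) on the same strand with another annotated gene that is also at 0. Its 0 thus speaks only for the exon bases that are not shared. This floor accounts for counting error alone.

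Next come the differences between the lines. With thresholds of 0.05 on the adjusted p and 1 on the size of the log2 fold change, 5 of the 25 tested transporters were called (20%), against 18.2% of all tested genes. SLC1A4, SLC38A6 and SLC43A1 were higher in KEAP1null-KYSE450, 12.0% of the 25 against 12.2% of all genes called higher. SLC7A5 and SLC7A2 were lower, 8% against 5.98%. At the adjusted p alone, 14 transporters passed (56.0%, against 49.8% of all genes), 6 of them higher (24% against 24.3%) and 8 lower (32.0% against 25.5%). Over all genes 2045 were higher and 999 lower, a split that quantile normalization changed to 1388 and 1289. Without the first library of both lines, 3 transporters were called higher and 2 lower at both thresholds, and 6 and 10 at the adjusted p alone. The 5 called genes were the same in that fit, with log2 fold changes of -1.495 for SLC7A5, -1.30 for SLC7A2, 1.22 for SLC1A4, 1.15 for SLC38A6 and 1.21 for SLC43A1. Of the 9 past the adjusted p alone, 8 passed it there too, at 0.77 for SLC7A8, -0.44 for SLC7A6, -0.42 for SLC7A1, -0.53 for SLC1A5, -0.46 for SLC36A4, -0.80 for SLC6A8, 0.66 for SLC6A6 and -0.40 for SLC6A15, and SLC1A1 did not. The lines also differed in composition without overlap: mitochondrial genes made up 2.04% to 2.83% of the counts in KYSE450 and 3.92% to 4.65% in KEAP1null-KYSE450, and the 50 most abundant genes 15.2% to 16.5% against 19.5% to 20.9%. In bulk RNA, fewer cells that express a gene and less RNA per cell cannot be told apart.

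By family, SLC7 had the lowest median log2 fold change, -0.45 over 5 tested genes (-0.29 with quantile normalization), beside 0.00 over all tested genes. In SLC7, 4 genes were lower and 1 higher at the adjusted p. Beside these and the family counts that follow, 25.5% of all tested genes were lower and 24.3% higher. SLC6 had a median of -0.20 over 6 genes, with 1 higher and 2 lower, and of -0.0595 without KEAP1null-KYSE450 library 2 and -0.0994 without both first libraries. SLC36 had a median of -0.11 over 2 genes, with 1 lower, and of -0.0343 without KYSE450 library 1 and -0.0379 with quantile normalization. Over all 25 tested transporters the median was -0.13. With 1 library left out it lay between -0.21 (without KYSE450 library 3) and -0.0369 (without KEAP1null-KYSE450 library 2). DESeq2 had no filter on the mean and fitted 39 transporters. Their median was 0.0765, beside 0.0781 over all genes fitted there. DESeq2 medians of a family can thus cover more genes than the tested ones. SLC38 had a median of -0.09 over 6 genes, with 1 gene higher and none lower at the adjusted p in limma. This median turned positive with quantile normalization (0.01) and moved away from 0 without KEAP1null-KYSE450 library 1 (-0.22) or both first libraries (-0.16). In DESeq2, over a larger set of SLC38 genes, it was 0.04. SLC1 had a median of 0.36 over 4 genes, with 2 higher and 1 lower. Its median was 0.16 without both first libraries, 0.58 in edgeR, and 0.83 in DESeq2 over a larger set of SLC1 genes. SLC43 had a median of 0.60 over 2 genes, with 1 higher. Each family thus held genes on both sides of 0 except SLC43, whose 2 tested genes were at 0.04 and 1.16.

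**Figure D2:**
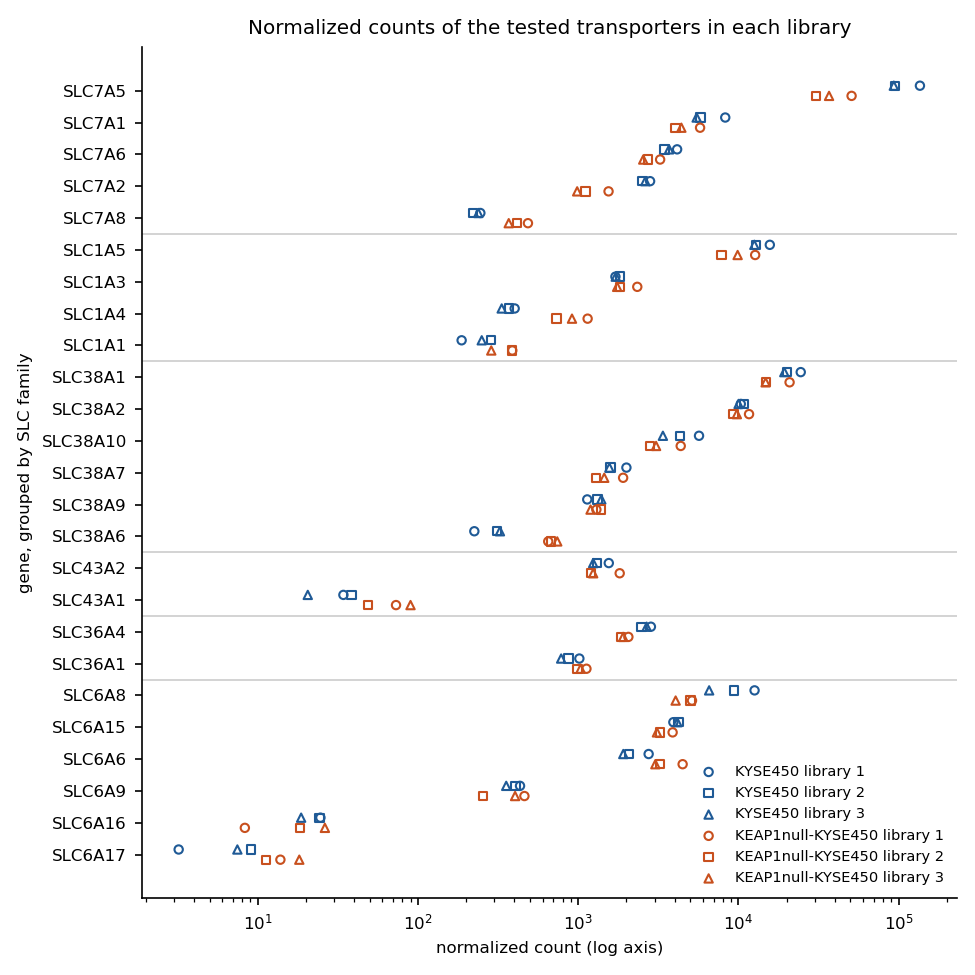
Normalized counts (x axis, log scale) of the 25 tested transporters in each library, grouped by SLC family; each symbol is a library, blue for KYSE450 and orange for KEAP1null-KYSE450. SLC7A5 holds the highest values, 93198 to 135638 in KYSE450 and 30384 to 50795 in KEAP1null-KYSE450, and the 5 genes called at both thresholds show no overlap between the lines.

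Levels of different genes were compared per kilobase of merged exons. SLC7A5 led in both lines, with 22675 ± 5025 (SD, n = 3) normalized counts per kilobase in KYSE450 and 8251 ± 2192 in KEAP1null-KYSE450. The glutamine carrier SLC1A5 came next, at 4113 ± 517 and 3042 ± 735 per kilobase. SLC38A1, another glutamine carrier, followed at 2128 ± 276 and 1680 ± 347. In KYSE450 the next places, SLC6A8 at 1667 ± 531 and SLC38A2 at 1597 ± 63.9, did not differ beyond their spread. In KEAP1null-KYSE450, SLC38A2 (1573 ± 189) was within the spread of SLC38A1, and SLC6A8 (830.2 ± 103) lay below both. Of the summed level of all 56 genes, SLC7A5 made up 64.7%, 60.6% and 61.9% in KYSE450 against 45.2%, 40.4% and 43.5% in KEAP1null-KYSE450. Its share was thus lower in every KEAP1null-KYSE450 library, although it stayed the most abundant of these transcripts per length.

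SLC7A5 (LAT1) is the light chain that exchanges glutamine for leucine and other large neutral amino acids. It spans chr16:87830023-87869507 (hg38, minus strand), and its normalized counts were 135638, 95230 and 93198 in KYSE450 and 50795, 30384 and 36746 in KEAP1null-KYSE450. The lines did not overlap: the highest KEAP1null-KYSE450 library, the first, lay well under the lowest KYSE450 library. Its level was 2.77-fold lower in KEAP1null-KYSE450 (log2 fold change -1.47, standard error 0.19, 95% interval -1.87 to -1.07, limma adjusted p = 3.9e-05). It was lower in 3 of 3 libraries, and under 16 other settings its log2 fold change lay between -1.67 and -1.29. Its pseudogene SLC7A5P1 held 52.6 to 94.0 normalized counts, far fewer than the gene itself.

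The heavy chain SLC3A2, which carries SLC7A5 to the membrane, was in a list of accessory subunits. Its normalized counts were 48029, 39384 and 37759 in KYSE450 and 24860, 14847 and 17689 in KEAP1null-KYSE450. All KEAP1null-KYSE450 values were below all KYSE450 values, and the libraries kept the order of SLC7A5 in each line. Its log2 fold change of -1.15 (standard error 0.16, limma adjusted p = 0.00010) passed both thresholds, but came to -0.98 without KEAP1null-KYSE450 library 2 and to -0.9995, just short of the threshold, with quantile normalization. Per kilobase of exons, the ratio of SLC7A5 to SLC3A2 was 3.79, 3.24 and 3.31 in KYSE450 and 2.74, 2.75 and 2.79 in KEAP1null-KYSE450, a description without a test. Light and heavy chain were thus both lower, and the light chain by somewhat more. SLC3A1, the other heavy chain, stayed at or under the floor in all 6 libraries, so no ratio to it was formed.

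**Figure D3:**
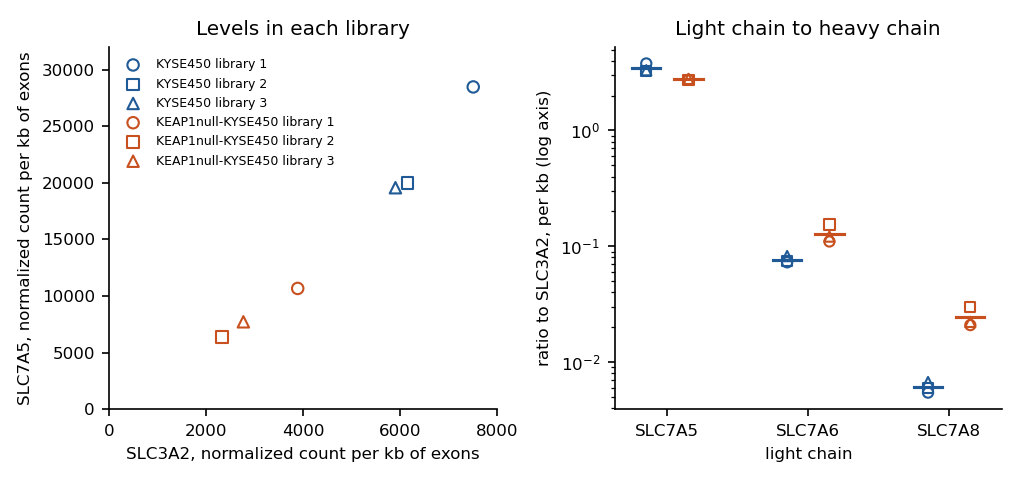
Left, normalized counts per kilobase of exons of SLC3A2 (x axis) and SLC7A5 (y axis), each symbol a library; right, the ratio of the light chains SLC7A5, SLC7A6 and SLC7A8 to SLC3A2 in each library (log axis, bars are means of 3 libraries). Mean ratios in KYSE450 and KEAP1null-KYSE450 were 3.45 and 2.76 for SLC7A5, 0.0763 and 0.128 for SLC7A6, and 0.00604 and 0.0243 for SLC7A8.

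SLC7A8 (LAT2), a light chain with a wider range of neutral substrates, went the other way. It had 245, 220.4 and 238 normalized counts in KYSE450 and 485, 414 and 368 in KEAP1null-KYSE450. Every KEAP1null-KYSE450 library was above every KYSE450 library, at levels far below those of SLC7A5. The log2 fold change of 0.84 (95% interval 0.50 to 1.18, limma adjusted p = 0.00073) stayed under the fold threshold. SLC7A6 (y+LAT2), which exports arginine in exchange for glutamine, had 4140, 3460 and 3687 against 3243, 2715 and 2544 normalized counts. Again the lines did not overlap, with the lower values in KEAP1null-KYSE450. Its log2 fold change was -0.41 (limma adjusted p = 0.0090), and the call was lost in edgeR and DESeq2 and without KEAP1null-KYSE450 library 3 (adjusted p between 0.054 and 0.10; between 0.00035 and 0.10 over all settings). Of its exon bases, 44.4% overlap SLC7A6OS on the opposite strand, itself at 2461, 2614 and 2681 against 1946, 1687 and 1778 normalized counts, and no use of strand in counting is described, so reads of this pair cannot be told apart. SLC7A7 (y+LAT1) and SLC7A9, the partner of SLC3A1, did not exceed 8.30 and 4.04 normalized counts.

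SLC7A5 and SLC3A2 moved together, so the bases around their starts are shown with those of the other genes called at both thresholds, as far as they hold a motif searched for. The RefSeq promoter table (GRCh38.p14) covers 250 bases before to 50 after a start and had 63 entries for 43 of the 56 genes. Searched on both strands were TGACNNNGC, the core of the antioxidant response element to which NRF2 binds, TGATGNAA, the core of the amino acid response element, and CACGTG, the E-box. They occurred in 13.3%, 3.62% and 7.26% of all 35116 promoters, and in 9.52%, 7.94% and 15.9% of the 63. Capitals mark the matches, which did not overlap each other, in SLC7A5 (chr16:87869458-87869757, minus strand), the only one of 3 SLC3A2 entries with a match (chr11:62881449-62881748, plus strand), SLC1A4 (chr2:64989149-64989448, plus strand, entry 2 of 2) and SLC43A1 (chr11:57515653-57515952, minus strand, entry 2 of 2).
SLC7A5: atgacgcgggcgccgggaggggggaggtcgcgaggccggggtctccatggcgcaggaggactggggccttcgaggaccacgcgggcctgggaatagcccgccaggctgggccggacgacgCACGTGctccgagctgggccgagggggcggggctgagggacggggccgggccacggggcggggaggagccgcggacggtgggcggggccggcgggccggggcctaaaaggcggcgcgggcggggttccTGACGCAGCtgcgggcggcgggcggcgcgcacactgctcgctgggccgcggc
SLC3A2: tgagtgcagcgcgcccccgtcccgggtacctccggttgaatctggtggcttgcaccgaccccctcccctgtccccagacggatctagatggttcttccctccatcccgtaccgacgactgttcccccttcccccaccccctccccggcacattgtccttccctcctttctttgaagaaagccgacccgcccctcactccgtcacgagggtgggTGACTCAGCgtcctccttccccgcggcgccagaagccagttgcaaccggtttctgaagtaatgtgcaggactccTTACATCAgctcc
SLC1A4: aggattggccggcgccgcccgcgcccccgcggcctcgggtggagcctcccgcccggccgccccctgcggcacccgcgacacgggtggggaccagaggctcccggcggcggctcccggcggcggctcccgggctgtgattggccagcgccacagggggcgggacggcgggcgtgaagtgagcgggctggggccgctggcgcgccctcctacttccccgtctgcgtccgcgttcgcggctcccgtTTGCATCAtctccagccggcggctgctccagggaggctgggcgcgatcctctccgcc
SLC43A1: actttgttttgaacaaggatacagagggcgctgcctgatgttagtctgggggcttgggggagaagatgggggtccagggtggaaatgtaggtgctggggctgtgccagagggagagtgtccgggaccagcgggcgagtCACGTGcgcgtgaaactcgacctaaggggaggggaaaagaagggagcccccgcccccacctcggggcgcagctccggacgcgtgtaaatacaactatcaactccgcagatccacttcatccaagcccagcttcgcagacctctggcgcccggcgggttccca
The SLC7A5 window holds CACGTG beginning at position -130 and TGACGCAGC beginning at -2, counted from the start site. That of SLC3A2 holds TGACTCAGC from -37 and TTACATCA, a match of the amino acid response element core on the other strand, from 38. SLC1A4 holds TTGCATCA from -7, again on the other strand, and SLC43A1 holds CACGTG from -112. The single SLC38A6 entry held none of the 3 motifs, and SLC7A2 has no entry. A match describes letters in a window and says nothing of binding.

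The remaining SLC7 genes tested carry cationic amino acids. SLC7A2 (CAT2), on chromosome 8, brings in arginine and lysine. Its normalized counts were 2807, 2523 and 2621 in KYSE450 and 1546, 1109 and 985 in KEAP1null-KYSE450. The lines were well apart, and the lowest KYSE450 library was above the highest KEAP1null-KYSE450 library. It was 2.22-fold lower in KEAP1null-KYSE450 (log2 fold change -1.15, standard error 0.15, 95% interval -1.47 to -0.84, limma adjusted p = 4.0e-05), and stayed past both thresholds under 16 other settings. SLC7A1 (CAT1), the more widely expressed arginine carrier, had 8267, 5802 and 5482 against 5758, 4054 and 4401 normalized counts. The first library was the highest in each line, and that of KEAP1null-KYSE450 reached into the KYSE450 range. Its log2 fold change was -0.45 (limma adjusted p = 0.032), and the call was lost under 7 of 16 other settings (adjusted p between 0.092 and 0.14 there, and between 0.00035 and 0.14 over all), among them those without KEAP1null-KYSE450 library 2 or 3 or KYSE450 library 1, where it lay between -0.41 and -0.27. SLC7A14, which resembles the cationic carriers, did not exceed 3.03 normalized counts.

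The SLC1 family holds neutral and acidic amino acid carriers. SLC1A4 (ASCT1), which carries serine, alanine and cysteine, spans chr2:64988477-65023865 (plus strand). It had 401, 369 and 333 normalized counts in KYSE450 and 1144, 733 and 914 in KEAP1null-KYSE450. All KEAP1null-KYSE450 libraries were above all KYSE450 libraries, with the first library highest in each line. The gene was 2.49-fold higher in KEAP1null-KYSE450 (log2 fold change 1.32, standard error 0.16, 95% interval 0.97 to 1.67, limma adjusted p = 3.3e-05), and 1.22 on the log2 scale without the first library of both lines.

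SLC1A5 (ASCT2), its close relative and the family's most abundant transcript per length, is a main entry route of glutamine. It had 15687, 12867 and 12562 normalized counts in KYSE450 and 12707, 7827 and 9879 in KEAP1null-KYSE450. The lines overlapped through the first KEAP1null-KYSE450 library, which lay just above the lowest KYSE450 library. Its log2 fold change of -0.46 passed the adjusted p (limma adjusted p = 0.025), but not under 7 of 16 other settings (adjusted p between 0.060 and 0.14 there, and between 0.00019 and 0.14 over all), which include the fits without KEAP1null-KYSE450 library 2 or 3 or KYSE450 library 1, at -0.45 to -0.28. The glutamate carrier SLC1A1 (EAAT3) had 187, 285 and 249.9 against 388, 385 and 287 normalized counts. Its lowest KEAP1null-KYSE450 library was barely above its highest KYSE450 library. The log2 fold change was 0.56 (limma adjusted p = 0.029) and the call was lost under 6 of 16 other settings (adjusted p between 0.071 and 0.18 there, and between 0.012 and 0.18 over all), among them those without KEAP1null-KYSE450 library 1 or 2 or KYSE450 library 1, at 0.39 to 0.49, and the one without both first libraries, the lowest at 0.32. SLC1A3 (EAAT1) lay between 1706 and 2335 normalized counts with overlapping lines and did not pass the adjusted p. The glial glutamate carrier SLC1A2 did not exceed 15.7.

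SLC38 carriers take up glutamine, alanine and other small neutral amino acids or release them from lysosomes. SLC38A6, whose substrates are less well known, spans chr14:60981114-61114316 (plus strand). It had 225, 311 and 324 normalized counts in KYSE450 and 649.6, 678 and 739 in KEAP1null-KYSE450. Every KEAP1null-KYSE450 value was above every KYSE450 value, and here the first library was the lowest in both lines. It was 2.43-fold higher (log2 fold change 1.28, standard error 0.16, 95% interval 0.93 to 1.62, limma adjusted p = 3.7e-05), between 1.11 and 1.38 on the log2 scale under 16 other settings.

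SLC38A1 (SNAT1) had the family's highest mean per kilobase of merged exons in both lines. SLC38A2 was above it in KEAP1null-KYSE450 library 3, and in the mean of that line by the longest transcript. The normalized counts of SLC38A1 were 24461, 20158 and 19316 against 20839, 14864 and 14771. The first KEAP1null-KYSE450 library lay within the KYSE450 range, and the other 2 lay below it. The log2 fold change of -0.35 (95% interval -0.65 to -0.05) missed the threshold (limma adjusted p = 0.051) and passed it under 4 of 16 other settings, among them without KEAP1null-KYSE450 library 1 (-0.52) or KYSE450 library 3 (-0.42) and without the first library of both lines (-0.41), with adjusted p between 0.00013 and 0.47 over all. SLC38A2 (SNAT2), the form known to be induced when amino acids run short, lay between 9320 and 11638 normalized counts in overlapping lines. SLC38A7, a glutamine exporter of the lysosome, SLC38A9, the arginine sensor of the lysosome, and SLC38A10 overlapped as well, with ranges of 1296 to 1998, 1138 to 1393 and 2796 to 5672. Of these, SLC38A10 passed the adjusted p under 3 other settings: without KEAP1null-KYSE450 library 1 (-0.58), without KYSE450 library 3 (-0.57) and without the first library of both lines (-0.39). SLC38A4, SLC38A5 and SLC38A11 did not exceed 8.39 normalized counts.

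**Figure D4:**
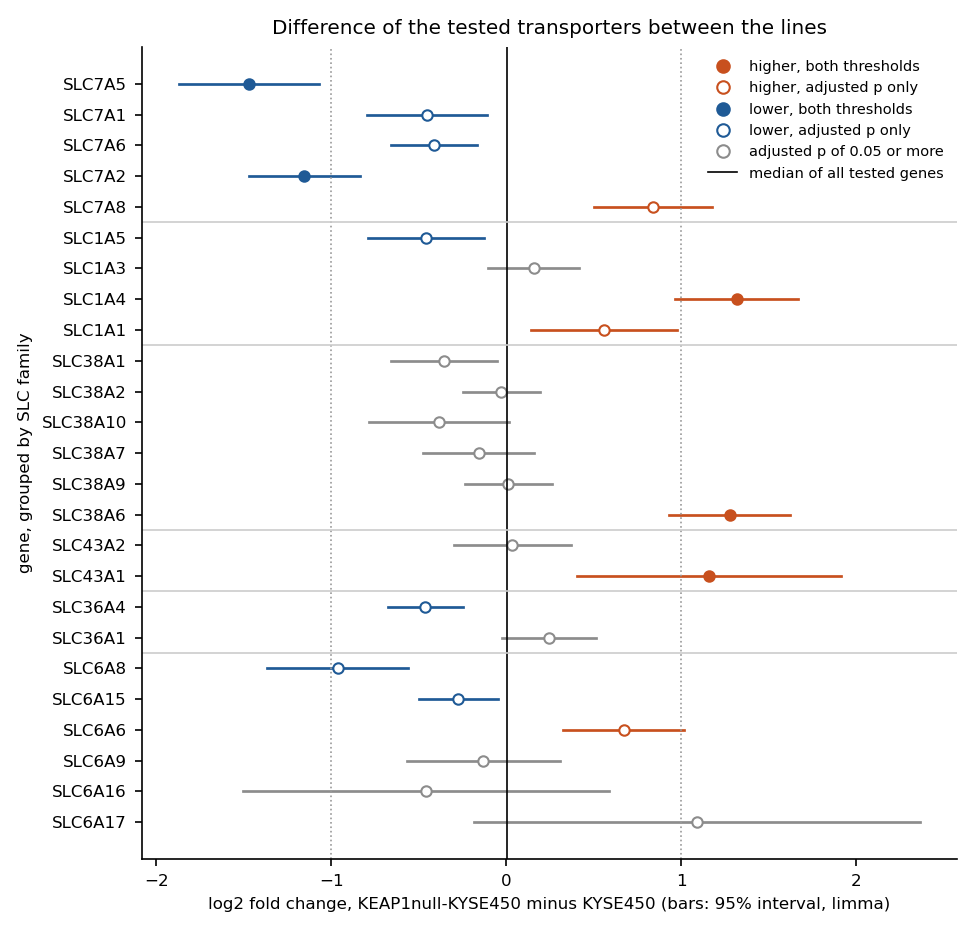
Log2 fold change (x axis, KEAP1null-KYSE450 minus KYSE450) of the 25 tested transporters by family, with 95% intervals from limma; filled symbols passed both thresholds, open coloured symbols the adjusted p alone, grey symbols neither, and the vertical line is the median of all tested genes. SLC7A5 (-1.47) and SLC1A4 (1.32) stand at the ends of the range of called genes.

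SLC43 carriers move large neutral amino acids without coupling. SLC43A1 (LAT3; chr11:57484534-57515780, minus strand) had 34.2, 38.4 and 20.5 normalized counts in KYSE450 and 72.9, 48.9 and 89.8 in KEAP1null-KYSE450. The lines did not overlap, but the counts were low and the gap between them narrow. It was 2.24-fold higher in KEAP1null-KYSE450 (log2 fold change 1.16, standard error 0.35, 95% interval 0.41 to 1.92, limma adjusted p = 0.015). The call was lost under 6 of 15 other settings (adjusted p between 0.0098 and 0.17), including those without KEAP1null-KYSE450 library 3 (0.97) and without KYSE450 library 3 (0.90). SLC43A2 (LAT4), the family's most abundant transcript per length, had 1551, 1305 and 1239 against 1814, 1204 and 1239 normalized counts. The lines overlapped widely, and the interval of the log2 difference reached from -0.30 to 0.37.

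Among the proton-coupled SLC36 carriers, SLC36A4 (PAT4), which carries proline and tryptophan, was the most abundant per length. Its normalized counts were 2841, 2484 and 2672 in KYSE450 and 2055, 1843 and 1907 in KEAP1null-KYSE450. The lines did not overlap and the spread within each was small. SLC36A4 was 1.38-fold lower in KEAP1null-KYSE450 (log2 fold change -0.46, 95% interval -0.67 to -0.25, limma adjusted p = 0.0020). SLC36A1 (PAT1), which exports small amino acids from the lysosome, lay between 782 and 1125 normalized counts and did not pass the adjusted p (0.12 in limma), except without KYSE450 library 1 (log2 fold change 0.35) and without the first library of both lines (0.29).

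In SLC6, the abundant genes carry metabolites beside amino acids. SLC6A8, the creatine carrier and the family's most abundant transcript per length, had 12598, 9339 and 6559 normalized counts in KYSE450 and 5127, 5010 and 4053 in KEAP1null-KYSE450. The KYSE450 libraries were widely spread, yet each lay above each KEAP1null-KYSE450 library. With a log2 fold change of -0.96 (95% interval -1.36 to -0.56, limma adjusted p = 0.00095) it was just under the fold threshold. It passed that threshold without KEAP1null-KYSE450 library 1 (-1.03) or 2 (-1.01) or KYSE450 library 3 (-1.21), and lay at -0.80 without the first library of both lines. SLC6A6, the taurine carrier, had 2750, 2066 and 1910 against 4482, 3233 and 3029 normalized counts. All KEAP1null-KYSE450 libraries were higher, and the first library was the highest in each line. Its log2 fold change was 0.67 (95% interval 0.33 to 1.02, limma adjusted p = 0.0039). SLC6A15, a carrier of branched-chain amino acids and proline known from neurons, had 3922, 4222 and 4154 against 3881, 3239 and 3099 normalized counts. The values of the lines almost touched. Its small log2 fold change of -0.27 (limma adjusted p = 0.044) lost its call under 10 of 16 other settings (adjusted p between 0.062 and 0.50 there, and between 0.00046 and 0.50 over all), which include the fits without KYSE450 or KEAP1null-KYSE450 library 2 or 3, at -0.26 to -0.21.

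SLC6A20, a proline carrier known from gut and kidney, fell below the mean needed for the test. It had 12.8, 8.09 and 20.5 normalized counts in KYSE450 and 0 in all 3 KEAP1null-KYSE450 libraries. It was above the floor in each KYSE450 library and in no KEAP1null-KYSE450 library. Set against the floor of 3 reads per library it was at least 4.68-fold lower in KEAP1null-KYSE450. In the 3 settings that fitted it, limma on every gene above 0, edgeR and DESeq2, it was lower past both thresholds. It entered these fits through its KYSE450 counts alone and was picked after its values were seen. They therefore add no support to the bound, and the size of a change to 0 depends on the method. The glycine carrier SLC6A9 lay between 255 and 461 normalized counts, and SLC6A16 and the vesicle carrier SLC6A17 between 3.21 and 26.2. None of these 3 passed the adjusted p in limma. SLC6A2, SLC6A4 and SLC6A14 did not exceed 8.56.

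By position, several of these genes lie side by side. Some neighbours differed in level. Others were alike, such as SLC6A12 with SLC6A13 and SLC6A18 with SLC6A19, all at or under the floor in every library. SLC38A1 and SLC38A2 lie 88.2 kb apart on chromosome 12, both abundant, while SLC38A4, 392 kb beyond SLC38A2, was nearly silent. On chromosome 5, SLC36A1 was expressed while its neighbours SLC36A2 and SLC36A3, 89.5 and 133 kb away, were at 0 in all libraries. SLC7A8 and the barely detected SLC7A7 lie 295 kb apart on chromosome 14.

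Other genes that handle amino acids were followed as lists. Of 5 accessory subunits, 3 were tested, with 1 higher (CLTRN) and 1 lower (SLC3A2) at both thresholds (12.2% and 5.98% of all tested genes). CLTRN, a helper protein that brings SLC6A19 and its relatives to the membrane, had 23.5, 54.6 and 43.8 against 117, 137 and 94.8 normalized counts. All KEAP1null-KYSE450 libraries were higher, with a log2 fold change of 1.56 (limma adjusted p = 0.0016).

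Of 20 other amino acid and peptide carriers, 13 were tested, with 1 higher and 7 lower at the adjusted p (24.3% and 25.5% of all tested genes) and a median log2 fold change of -0.46. SLC15A2, a carrier of di- and tripeptides, had 687, 954 and 799 against 1656, 1930 and 1649 normalized counts. It was higher in each KEAP1null-KYSE450 library, with a log2 fold change of 1.11 (limma adjusted p = 2.5e-05), and 0.99 without KYSE450 library 1. The mitochondrial glutamate carrier SLC25A18 passed both thresholds in the lower direction from low counts of 7.14 to 43.8 (log2 fold change -1.52, limma adjusted p = 0.040). Its call was lost under 8 of 15 other settings, 5 of them with 1 library left out (any but KYSE450 library 2; log2 fold changes of -1.66 to -1.19), and without both first libraries (-1.36).

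Of 23 genes for amino acid sensing at the lysosome, 22 were tested, with 7 higher and 5 lower at the adjusted p (24.3% and 25.5% of all tested genes) and a median of 0.15. SESN3, a stress-responsive regulator of mTORC1, had 11272, 10940 and 10045 against 33405, 35835 and 31350 normalized counts. The lines were far apart, at a log2 fold change of 1.64 (standard error 0.10, limma adjusted p = 4.0e-08). With all 6 libraries no other gene of this list passed both thresholds, and LAMTOR3 did so without KYSE450 library 3 (log2 fold change 1.05). Of 15 amino acid response genes, all tested, none passed both thresholds with all 6 libraries (18.2% of all tested genes did), CHAC1 passed them without both first libraries (log2 fold change -1.005), and 4 were higher and 3 lower at the adjusted p (24.3% and 25.5% of all tested genes), with a median of 0.05.

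Of 22 enzymes of glutamine, glutamate, aspartate, proline and branched-chain amino acids, 20 were tested, with 3 higher and 12 lower at the adjusted p (24.3% and 25.5% of all tested genes) and a median of -0.43. GLS2, a mitochondrial glutaminase, had 112, 113 and 73.7 against 352, 399.6 and 372 normalized counts. It was higher in every KEAP1null-KYSE450 library, with a log2 fold change of 1.92 (standard error 0.20, limma adjusted p = 8.2e-06). PRODH, which opens proline breakdown, passed in the lower direction from 17.1, 23.2 and 10.3 against 6.46, 6.12 and 0 normalized counts (log2 fold change -2.18, limma adjusted p = 0.044). That call rested on few reads and was lost under 9 of 15 other settings, among them without KEAP1null-KYSE450 library 3 (log2 fold change -1.23), KYSE450 library 1 (-2.14) or KYSE450 library 2 (-1.93).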

How the data were processed

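RNA sequencing of 3 KYSE450 and 3 KEAP1null-KYSE450 libraries was used. The authors checked reads with FastQC (0.11.5), trimmed them with cutadapt (1.12), aligned them to hg38 with STAR (2.6.90c) and counted them per gene with featureCounts (1.5.1; versions per the submitters' processing notes). The deposited matrix holds this signal as normalized counts, 1 column per library. The authors name DESeq2 for their own comparison and a RefSeq annotation, while the matrix carries Ensembl identifiers. In all 6 libraries each value is a whole multiple, within 0.1 reads, of what 1 read is worth. In KYSE450 library 2 and KEAP1null-KYSE450 library 3 this step was too near 1 for the reads to be taken as recovered; the other 4 held 53027359 to 61543442 reads. The floor of 3 reads was 2.77 to 3.21 normalized counts, below which levels cannot be told from 0.

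Lines were compared with limma (version 3.58.1, R 4.3.3; lmFit, eBayes with trend) on log2(normalized count + 1) for the 16701 genes whose mean reached 10, with Benjamini-Hochberg adjustment over all of them. Fold changes on this scale understate changes of low genes. Tests were two-sided. All 56 genes were in gencode v44, which gave positions and lengths. The genes and lists were chosen with earlier results of these data known. Named with the values of every library were genes past both thresholds, the most abundant gene per length of each family, and genes past the adjusted p with a mean of at least 1000, and of each list up to 4 genes past both thresholds. SLC7A8, SLC1A1 and SLC6A20 were added after their values were seen. Single values of some genes are not reported here. Other settings tried were quantile normalization, equal library totals, a pseudocount of 0.1 or of 10, testing every gene above 0, testing only genes whose mean reached 100, eBayes without trend, each library left out, edgeR (version 4.0.16) and DESeq2 (version 1.42.0) on the recovered reads of 4 libraries, the longest transcript as length, and, added after the data were seen, both first libraries left out. At both thresholds edgeR called 1901 genes higher and 899 lower, and DESeq2 1585 and 888. SLC66A1, in a list, was matched by its identifier because the matrix holds an older symbol. The fits were run on simulated counts to check the code. That simulation held no effect of a first library, so it does not bear on the calls given here.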

Additional observations from a re-analysis of the deposited data

How the results depend on the processing

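SLC7A5, SLC7A2, SLC1A4 and SLC38A6 kept their direction and both thresholds under all 16 other settings. SLC43A1 kept its direction only, under the 15 that tested it. At both thresholds 2 to 3 transporters were higher and 2 to 3 lower with a library left out. With no filter, in edgeR and in DESeq2, SLC6A20 was called lower in addition, a gene that entered those fits through its KYSE450 counts alone. Counted at both thresholds for genes that passed both in the fit of all libraries, and at the adjusted p alone for the others, of 554 values of 35 named genes 466 kept their direction and side of the threshold, 60 lost it, 9 gained it and 19, of 6 genes, changed sign.

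The 8 lower at the adjusted p became 5 in DESeq2, in edgeR, without the trend and with quantile normalization, and 4 to 10 with a library left out; the cause was not tested, except that edgeR and DESeq2 lacked KYSE450 library 2 and KEAP1null-KYSE450 library 3. Over all genes DESeq2 gave 2453 higher and 2691 lower at the adjusted p, and edgeR 2515 lower. A mean of at least 100 left 875 higher at both thresholds, among fewer genes. The median log2 fold change of SLC1 was 0.58 in edgeR and 0.16 without the first library of both lines. That of SLC43 was 0.0366 at a mean of at least 100, where 1 gene was left. In DESeq2, which fitted 39 transporters without a filter on the mean, the median of SLC1 was 0.83. The median of all transporters went from -0.13 over 25 genes to 0.0765 over these 39, beside 0.0781 over all genes fitted there. By the longest transcript, the ratio of SLC7A5 to SLC3A2 was 1.60 in KYSE450 and 1.28 in KEAP1null-KYSE450, and SLC38A2 took the place of SLC38A1 in KEAP1null-KYSE450.

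Log2 fold changes near 0 changed sign in several genes. SLC38A2 was at 0.0362 in DESeq2, 0.0718 in edgeR, 0.164 with quantile normalization and 0.00463 at the same total. With a library left out it lay between -0.123 and 0.0371. KEAP1 was at 0.14 with quantile normalization, 0.0156 at the same total and -0.0725 to 0.0403 with a library left out. SLC43A2 was at -0.0582 without both first libraries and at -0.154 to 0.142 with a library left out. SLC38A9 was at -0.0761 without both first libraries and at -0.0720 to 0.0737 with a library left out. SLC6A9 lay between -0.31 and 0.12 with a library left out. SLC6A16, farther from 0 at -0.46 with all 6 libraries, also changed sign (0.0432 without both first libraries). By replicate, no paired analysis was possible because the columns carry no replicate number. A fit with the libraries paired by column order was not run. Genes under about 3 reads per library are beyond this depth.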
